A study of Mus musculus with 6 samples.

Results

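The cadherin superfamily comprises cell surface proteins with repeated extracellular cadherin domains, most of which adhere to each other across cell contacts in a calcium-dependent manner. The genes described here are the cadherins (Cdh followed by a number), the protocadherins (Pcdh), the seven-pass Celsr and giant Fat and Dachsous genes, the calsyntenins and the catenins, all chosen by gene symbol. Of the 9583 genes in the deposited table, 57 carried such a symbol. The symbol alone decided membership, and no measured value was used. Among these were 17 clustered protocadherins, 8 δ-protocadherins, 2 other protocadherins, 10 classical cadherins, 2 atypical cadherins, 7 giant or seven-pass cadherins, 3 calsyntenins, 5 catenins and 3 genes that are only named after catenins.

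RNA was sequenced from neurons of the hypothalamic preoptic area (POA), a center of temperature regulation, of naïve wild-type C57Bl/6J mice aged 6 to 14 weeks, with no genetic change or drug treatment in either group. Dissociated, acutely cultured neurons were imaged with the calcium dye Fura-2 while the bath was cooled to about 10°C, and single cells were aspirated. Those among the strongest 7% by response to cooling formed the cold-sensitive group and those among the weakest 14% the cold-insensitive group, so the groups are ends of a response in culture and not genetically marked cell types. Each group had 3 biological replicates, and each library was a pool of about 100 to 200 neurons gathered over several isolations, so animals were mixed within a library. Cells of both types were taken from the same coverslips.

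Clustered protocadherins are encoded in 3 tandem arrays, α, β and γ, on chromosome 18. In the α and γ arrays each variable exon, with its own promoter, is spliced to constant exons shared by the array. Most isoforms are chosen stochastically in single neurons, and the resulting combinations let a neuron tell its own processes from those of others. The C-type isoforms, Pcdhac2 and Pcdhgc3 to Pcdhgc5 among those measured here, are used more uniformly. The δ-protocadherins are single genes expressed in patterns over brain regions, and classical cadherins bind homophilically and are anchored to actin through catenins. Fat and Dachsous proteins form ligand and receptor pairs in planar cell polarity and growth control.

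Library totals, summed over the 9583 genes of the table, ranged from 3316441 to 6818554 counted reads, with both the lowest and the highest total among cold-sensitive libraries. The paper reports a wide range of RNA integrity over the samples without assigning values to libraries. RNA quality could therefore not be compared between the types. Levels are the authors' normalized read counts (RPM, reads scaled to the effective library size), and fold changes, always cold-sensitive over cold-insensitive, come from edgeR on the raw counts. A gene is named called where its adjusted p did not exceed 0.05, and of all genes 80 were called lower and 32 higher in cold-sensitive neurons. Of the 10 markers of neurons, 10 were in the table, with a summed level of 6019 to 8922 RPM in cold-insensitive and 6872 to 8847 RPM in cold-sensitive libraries. None of them was called by edgeR, limma or DESeq2, while 3 had an unadjusted p under 0.05. Oligodendrocyte precursor cells were represented by 2 of 8 markers, with a sum of 338 to 368 RPM in cold-insensitive and 17.5 to 27.1 RPM in cold-sensitive libraries. Of these Pdgfra was called lower, from 336 to 364 RPM against 7.68 to 19.9 RPM (log2 fold change −4.85, adjusted p = 1.55e-09 by edgeR), while C1ql1 was at 2.74 to 8.28 RPM and 7.14 to 13.2 RPM and was not called (log2 fold change 0.95). Of the 12 astrocyte markers 3 were in the table and summed to 129 to 345 RPM in cold-insensitive and 128 to 167 RPM in cold-sensitive libraries, and of the ependymal markers 1 of 6 was. The highest astrocyte sum was that of cold-insensitive replicate 1. There the marker Slc1a2, named after its values were seen, was at 288 RPM, against 74.4 to 98.2 RPM in the other libraries. Markers of microglia, endothelium and mural cells were not among the genes in the table, which holds only genes with at least 1 RPM in every library.

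Cold-sensitive neurons had lower levels of 3 of the 57 genes. These were Pcdhgc3, a C-type isoform of the γ array, and the giant cadherins Fat4 and Fat1, by 5.38-, 3.67- and 2.46-fold as fitted by edgeR on 3 libraries per type. No gene of the group was called higher, and the other 54 did not pass the test in either direction. The 3 genes are 5.26% of the group, against 0.835% of all genes tested that were called lower. The count of 0 called higher stands against 0.334% of all genes, and DESeq2 and limma called 0 higher as well. At an unadjusted p under 0.05, 7 members were lower, or 12.3%, against 5.66% of all genes, and 1 was higher, or 1.75%, against 5.04%. DESeq2 gave an adjusted p to 55 of the 57 members and to 9207 of all genes. It called 4 of these members lower and 1.63% of these genes. The fourth was Pcdh10.

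The ranges of the 2 types did not overlap for 5 members that were lower in cold-sensitive neurons, against 8.18% of all genes, and for 5 that were higher, against 7.84%. Both counts are 8.77% of the 57 members, so non-overlap by itself was about as frequent among them as among all genes. The median log2 fold change of the 57 genes was −0.17, with 34 negative and 23 positive values, and that of all genes was 0.00, with 49.9% negative.

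**Figure D1:**
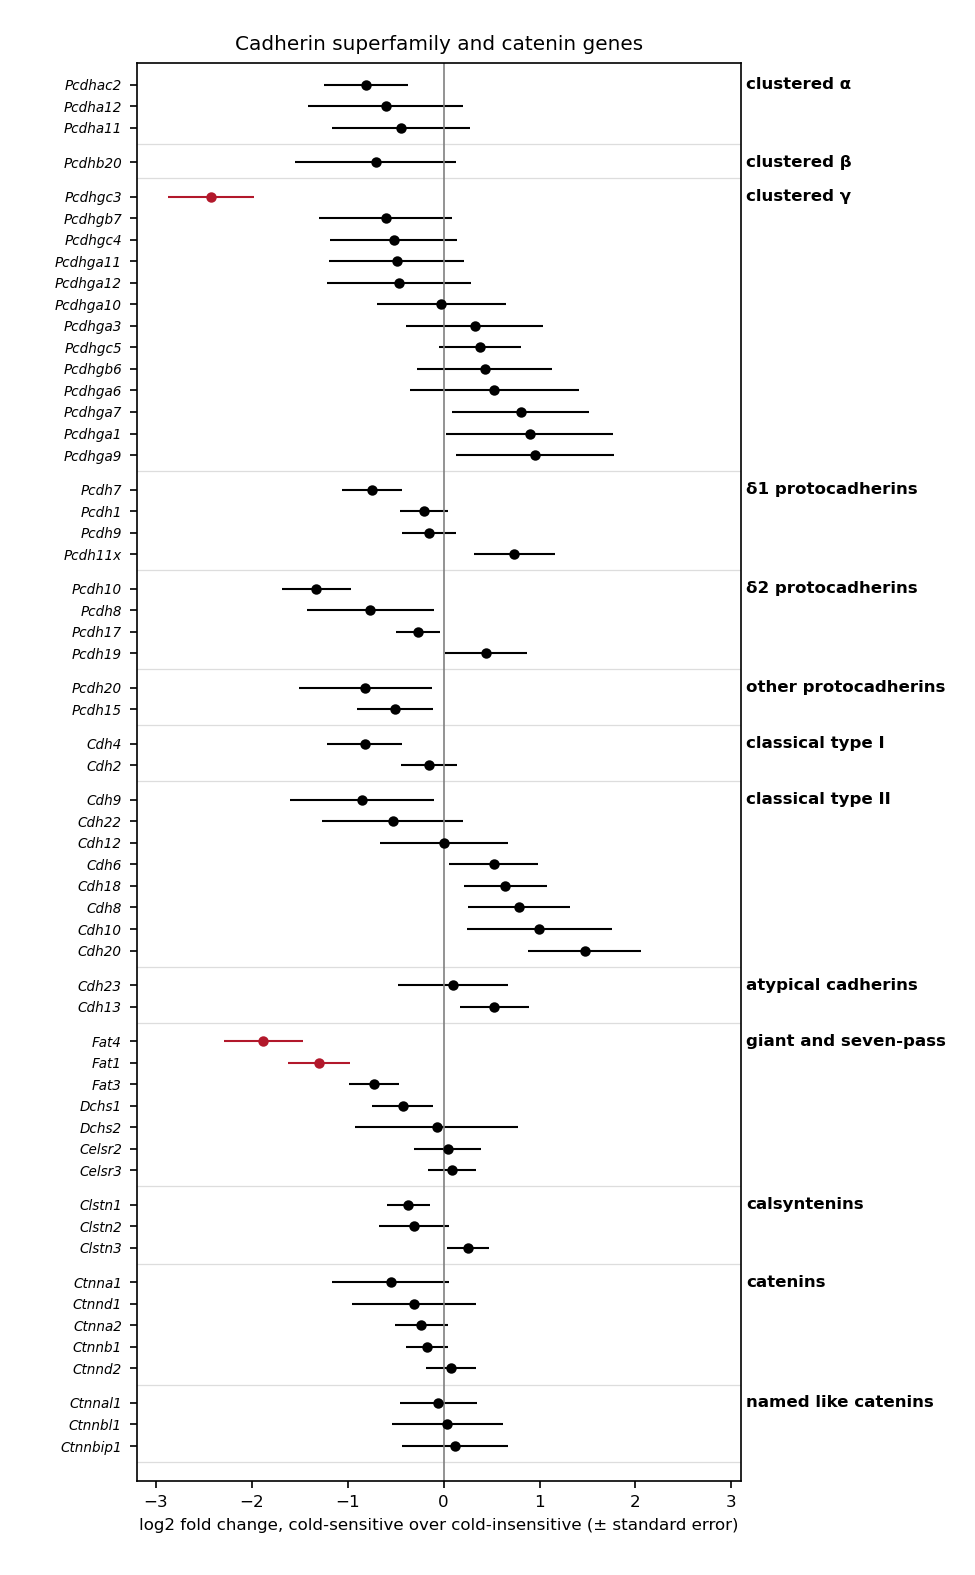
Log2 fold change of each of the 57 genes, cold-sensitive over cold-insensitive, grouped by family, with its standard error from the edgeR fit on 3 libraries per type. The 3 called genes (red) lie at −2.43, −1.88 and −1.30, and most intervals of the other 54 (black) reach or lie near 0.

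Most measured clustered protocadherins were genes of the γ array. Of the protein-coding genes of the GENCODE M21 annotation, 13 of 21 γ genes were in the table, 3 of 13 α genes and 1 of 22 β genes, so 17 of 56 clustered genes passed the authors' floor of 1 RPM in every library. Of the genes outside the clusters, 40 of 56 did. The filter also means that a gene absent from 1 type was not analysed here. Reads were counted without use of strand, and a read that overlapped several genes was not assigned, so the α and γ values rest on the exon sequence that is not shared within the array. Shared sequence made up 27.8 to 45.2% of the exon length of the γ genes in the annotation. Counts of single isoforms rest on the remaining part only. They stay uncertain, since likeness between genes within that part was not examined.

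Pcdhgc3 (ENSMUSG00000102918, chr18:37806364-37841873, plus strand of GRCm38) encodes protocadherin γC3, which binds Axin1 and acts in dendrite branching. Its level was 104, 62.9 and 71.1 RPM in cold-insensitive replicates 1 to 3, from 617, 369 and 363 reads. In cold-sensitive replicates 1 to 3 it was 17.8, 11.98 and 14.4 RPM, from 62, 39 and 97 reads. Every cold-sensitive library was thus far below the lowest cold-insensitive one. The means were 79.4 ± 21.9 and 14.7 ± 2.93 RPM (SD, n = 3 libraries each), and the log2 fold change was −2.43 ± 0.45 (SE), with an adjusted p of 0.00548 by edgeR. Leaving out cold-insensitive replicate 1 moved the log2 fold change to −2.18 and the adjusted p to 0.0704 by edgeR, past the threshold. Of the 2 measured precursor markers, Pdgfra was lower in the same libraries, at 7.68 to 19.9 RPM against 336 to 364 RPM, and C1ql1 was not, and their part in the differences of Pcdhgc3, Fat4 and Fat1 was not tested. In pools of cells, fewer cells that express a gene and less of its RNA per cell cannot be told apart.

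The makeup of the γ counts differed accordingly between the types, which restates the same reads as shares and was not tested separately. Pcdhgc3 supplied 33.8% of the counts of the 13 γ genes in cold-insensitive replicate 1 (exact binomial 95% interval 31.6 to 36.0%), 26.4% in replicate 2 (24.1 to 28.8%) and 27.6% in replicate 3 (25.2 to 30.1%). In the cold-sensitive libraries it supplied 5.65% (4.36 to 7.19%), 7.20% (5.17 to 9.71%) and 7.15% (5.84 to 8.66%). These intervals treat every counted read as independent and cover counting error only. Pcdhgc3 held the largest single share of the C-type γ counts in every cold-insensitive library, and Pcdhgc5 did so in every cold-sensitive library, with 21.5, 26.2 and 21.8% against 15.3, 16.4 and 12.9%. The share of Pcdhgc4, an isoform needed for neuron survival, overlapped between the types, at 4.79 to 11.7% and 3.87 to 10.0%. Because shares add up to the whole, a fall in 1 isoform raises the others. In RPM, the other C-type isoforms did not pass the test, with log2 fold changes of 0.38 ± 0.43 for Pcdhgc5 and −0.52 ± 0.66 for Pcdhgc4, both chosen for mention after their values were seen.

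**Figure D2:**
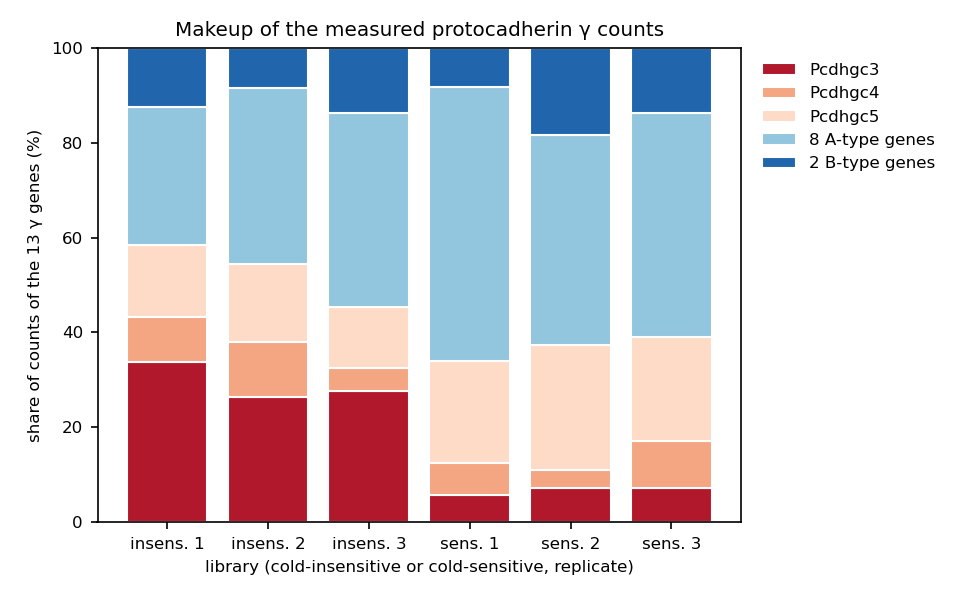
Share of each library's counts over the 13 measured γ genes (%), for Pcdhgc3, Pcdhgc4, Pcdhgc5, the 8 A-type and the 2 B-type genes, in 3 cold-insensitive and 3 cold-sensitive libraries. Pcdhgc3 holds 26.4 to 33.8% of the bar in cold-insensitive and 5.65 to 7.20% in cold-sensitive libraries.

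Pcdhac2, the only measured C-type isoform of the α array, was at 38.4, 64.7 and 75.4 RPM in cold-insensitive and 46.3, 23.6 and 31.8 RPM in cold-sensitive libraries. These ranges overlapped, and the log2 fold change of −0.81 ± 0.44 was not called (adjusted p = 0.550 by edgeR). Per kilobase of unshared exon the mean of Pcdhac2 was 19.6 RPM in cold-insensitive neurons, below the 23.5 RPM of Pcdhgc3. In cold-sensitive neurons it was 11.2 RPM, above the 4.36 RPM of Pcdhgc3. The order of the cold-insensitive means rested on replicate 1, at 12.7 RPM for Pcdhac2 against 30.8 RPM for Pcdhgc3. In cold-insensitive replicates 2 and 3 Pcdhac2 was the higher, as in every cold-sensitive library. A change of order between the types is therefore not shown.

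The 13 isoforms of the clusters other than the C-type ones, those picked at random in single neurons, went in both directions. Their log2 fold changes had a median of −0.02, with 7 negative and 6 positive, and ranged from −0.71 to 0.95. None was called by edgeR, DESeq2 or limma, and 0 had an unadjusted p under 0.05. The 8 measured γ A-type genes summed to 89.5, 88.3 and 106 RPM in cold-insensitive and to 182, 73.7 and 95.5 RPM in cold-sensitive libraries, so that a single library, cold-sensitive replicate 1, stood above the rest. Without Pcdhgc3, the clustered protocadherins summed to 257 to 317 RPM and to 187 to 379 RPM, with overlapping ranges.

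The spread of these isoforms between pools of 1 type was described by the coefficient of variation. The coefficient of variation over the 3 cold-insensitive libraries had a median of 64.7% for the 13 isoforms, against 29.8% for the 4 C-type isoforms and 29.0% for the 40 members outside the clusters. Over the cold-sensitive libraries the medians were 45.2, 30.2 and 33.9%. The 13 isoforms did not stand highest among all families in both types, since over the cold-sensitive libraries the δ-protocadherins had a median of 46.8% and the 2 other protocadherins one of 75.6%. The 13 isoforms had low counts, 6 to 200 reads per library, and the part of counting noise in their spread was not tested.

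Among the 8 δ-protocadherins, which act in axon sorting and synapse formation, none was called by edgeR or limma, 2 had an unadjusted p under 0.05 and DESeq2 called Pcdh10. Their median log2 fold change was −0.24, with 6 of 8 negative. Of the annotated genes, 4 of 4 δ1 and 4 of 5 δ2 genes were in the table.

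Pcdh10 (ENSMUSG00000049100, chr3:45378398-45435623, plus strand), a δ2-protocadherin that takes part in the activity-dependent elimination of synapses, came closest to the threshold. Its level was 251, 122 and 108 RPM in cold-insensitive and 35.3, 97.7 and 59.7 RPM in cold-sensitive libraries. The ranges were separated by only the short distance between 97.7 and 108 RPM. The log2 fold change was −1.33 ± 0.36, with an adjusted p of 0.0757 by edgeR and 0.0473 by DESeq2. Pcdh7, a δ1-protocadherin, was at 426, 427 and 609 RPM and at 105, 381 and 385 RPM, and its log2 fold change of −0.75 ± 0.31 was not called (adjusted p = 0.350 by edgeR). Its low mean in cold-sensitive neurons rested largely on replicate 1, at 105 RPM, while the other 2 libraries lay close under the cold-insensitive ones.

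Pcdh17, a δ2-protocadherin that organizes presynaptic assembly, gathered the most reads of the 57 genes. It was at 851, 873 and 981 RPM in cold-insensitive and 497, 1003 and 745 RPM in cold-sensitive libraries, with the cold-insensitive range inside the cold-sensitive one and a log2 fold change of −0.27 ± 0.23 (adjusted p = 0.766 by edgeR). The opposite sign was seen for Pcdh11x, chosen after its values were seen, with 18.4 to 67.3 RPM and 70.0 to 78.1 RPM, which did not overlap, at a log2 fold change of 0.74 ± 0.42 (adjusted p = 0.575 by edgeR). Of the remaining protocadherins, Pcdh15, part of the tip link of hair cells, was at 81.8 to 131 RPM and 23.6 to 112 RPM. Pcdh20 was at 18.6 to 29.0 RPM and 5.17 to 26.5 RPM. Neither was called, and the ranges of the types overlapped for both.

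The classical cadherins gave no call, and 0 of 10 were called by DESeq2 or limma, with 2 at an unadjusted p under 0.05. Both type I genes had a negative log2 fold change. Of these, the pan-neuronal N-cadherin Cdh2 was at 96.4 to 175 RPM in cold-insensitive and 90.9 to 146 RPM in cold-sensitive libraries (log2 fold change −0.15 ± 0.29). The sign of this small difference turned when cold-insensitive replicate 1 (0.043) or cold-sensitive replicate 2 (0.038) was left out. Cdh4, or R-cadherin, was at 42.7, 134 and 111 RPM and at 40.5, 75.9 and 46.6 RPM, with a log2 fold change of −0.82 ± 0.39 (adjusted p = 0.448 by edgeR). In Cdh4, too, the types overlapped, since cold-insensitive replicate 1 lay within the cold-sensitive range.

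Of the 8 type II cadherins, which mark particular circuits and nuclei in the brain, 6 had a positive and 2 a negative log2 fold change, with a median of 0.58. In 3 of them, Cdh20, Cdh18 and Cdh8, all cold-sensitive libraries lay above the cold-insensitive ones. This was so for 7.84% of all genes, and the type II genes were not tested as a set. Cdh20 (ENSMUSG00000050840, chr1:104768529-104995481, plus strand) had the largest positive log2 fold change of the 57 genes. It was at 6.42, 15.0 and 21.1 RPM in cold-insensitive and 41.9, 51.0 and 25.4 RPM in cold-sensitive libraries, a fitted 2.78-fold difference and a log2 fold change of 1.47 ± 0.59. With an unadjusted p under 0.05 and an adjusted p of 0.325 by edgeR, this difference did not pass the test. Cdh18 and Cdh8, chosen after their values were seen, were at 28.9 to 42.7 RPM against 42.7 to 74.6 RPM and at 18.4 to 22.1 RPM against 25.2 to 48.8 RPM. Their adjusted p-values were 0.665 and 0.671 by edgeR. For Cdh18 the lowest cold-sensitive and the highest cold-insensitive library were equal to the printed precision.

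The atypical cadherins were represented by Cdh13 and Cdh23. T-cadherin, Cdh13, which lacks a cytoplasmic tail and is held in the membrane by a lipid anchor, was at 69.9, 64.7 and 32.5 RPM in cold-insensitive and 79.9, 78.0 and 83.9 RPM in cold-sensitive libraries. The 3 cold-sensitive pools lay close together and above the others, but the log2 fold change of 0.53 ± 0.36 was not called (adjusted p = 0.672 by edgeR). Cdh23, the partner of Pcdh15 in the tip link, was at 11.995 to 35.2 RPM and 20.7 to 38.1 RPM (log2 fold change 0.10 ± 0.57).

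The giant and seven-pass cadherins held 2 of the 3 called genes. Of the 7 measured, from 9 annotated, edgeR and DESeq2 called 2 lower and limma 1, while edgeR called 0.835% of all genes lower. A negative log2 fold change was seen in 5 of the 7, against 49.9% of all genes, and the median was −0.43. The family was not tested as a set. Fat4 (ENSMUSG00000046743, chr3:38886940-39011985, plus strand), the receptor of Dachsous 1, was at 65.6, 127 and 204 RPM in cold-insensitive and 17.5, 39.9 and 49.7 RPM in cold-sensitive libraries. The ranges did not overlap, although the pools of each type spread widely. The log2 fold change was −1.88 ± 0.41 (adjusted p = 0.0220 by edgeR). It no longer passed when cold-insensitive replicate 2 (adjusted p = 0.103 by edgeR), cold-insensitive replicate 3 (0.222, log2 fold change −1.42) or cold-sensitive replicate 2 (0.0706) was left out.

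Fat1 (ENSMUSG00000070047, chr8:44935447-45052257, plus strand), which acts on actin and cell polarity, was at 88.4, 199 and 118 RPM in cold-insensitive libraries. In the cold-sensitive libraries it was at 52.6, 55.9 and 56.4 RPM, a range of a few RPM. The log2 fold change was −1.30 ± 0.33, and the adjusted p of 0.0484 by edgeR lay just inside the threshold. Under relative log expression scaling it was 0.0506, with limma 0.0710, and it lay between 0.0835 and 0.516 when any library except cold-insensitive replicate 1 was left out. The log2 fold change was −0.91 without cold-insensitive replicate 2.

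Fat3, which shapes amacrine cell dendrites in the retina, had the highest level per kilobase of the measured Fat genes, at 11.97 RPM in cold-insensitive and 7.24 RPM in cold-sensitive neurons. Its level by library was 183, 254 and 334 RPM in cold-insensitive and 133, 140 and 194 RPM in cold-sensitive libraries. The highest cold-sensitive library reached into the cold-insensitive range, and the log2 fold change of −0.72 ± 0.26 was not called (adjusted p = 0.252 by edgeR). The measured Fat genes, Fat1, Fat3 and Fat4, a grouping not among the planned lists, summed to 337, 580 and 656 RPM in cold-insensitive libraries. In cold-sensitive libraries they summed to 203, 236 and 299.8 RPM, without overlap. Fat1 and Fat4 were already called, so the sum restates these values and is no separate result.

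The Dachsous genes did not pass the test. Dchs1, the ligand of Fat4, chosen after its values were seen, was at 104 to 142 RPM and 56.2 to 130 RPM, and its log2 fold change of −0.43 ± 0.32 was not called (adjusted p = 0.717 by edgeR). Dchs2 was at 3.92 to 26.4 RPM and 2.83 to 33.3 RPM, so that single libraries of both types were high. Celsr3, a seven-pass cadherin of axon guidance, was at 164 to 193 RPM in cold-insensitive and 152 to 209 RPM in cold-sensitive libraries, a log2 fold change of 0.09 ± 0.25. Celsr2, chosen after its values were seen, had one of 0.04 ± 0.35, and the types overlapped in both seven-pass genes. The difference between the Fat genes and these other genes of the family was not tested.

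**Figure D3:**
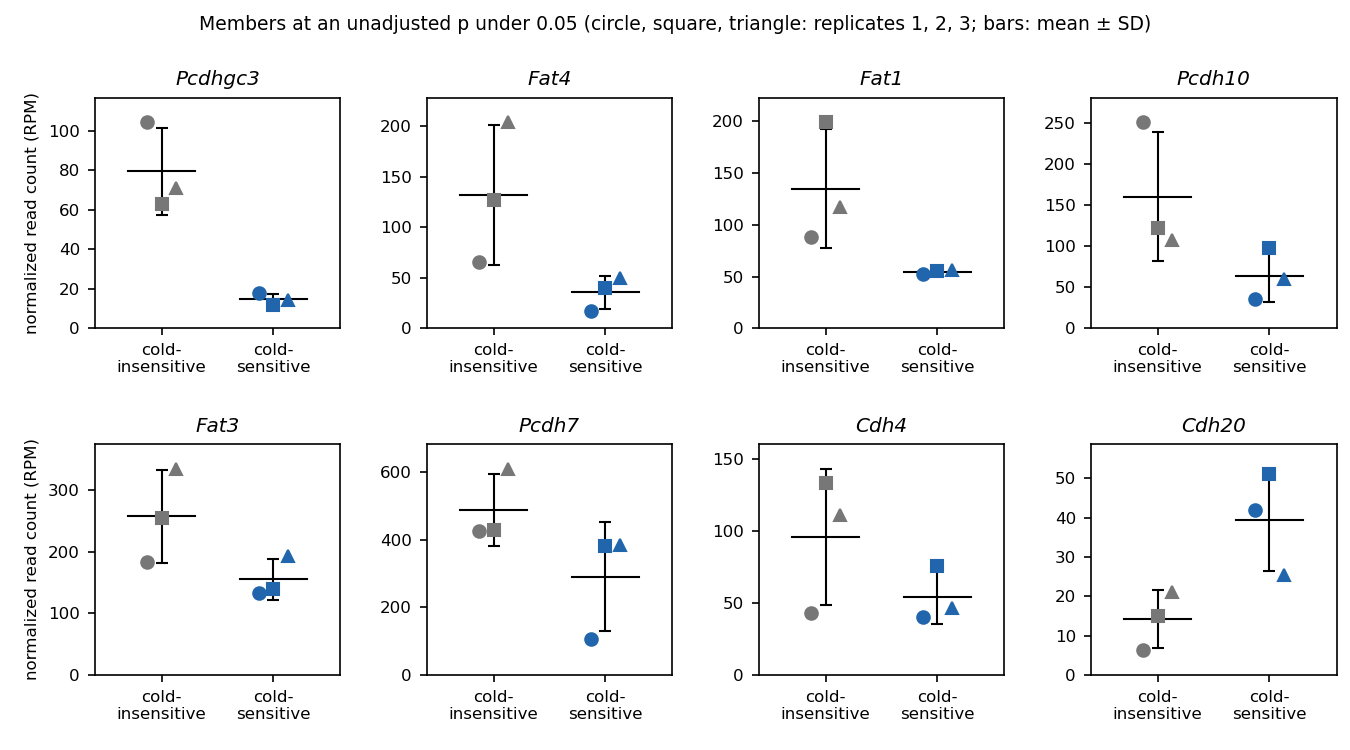
Normalized read count (RPM) of the 8 members with an unadjusted p under 0.05, by library, for cold-insensitive (grey) and cold-sensitive (blue) neurons. Circles, squares and triangles are replicates 1 to 3, and bars give the mean ± SD of 3 libraries. The types do not overlap in Pcdhgc3, Fat4, Fat1, Pcdh10, Pcdh7 and Cdh20, and they overlap in Fat3 and Cdh4.

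To show the upstream sequence of genes that differed most outside the clusters, the 250 bases before the RefSeq start (GRCm38.p6, plus strand, 5′ to 3′) are given for Fat4 (chr3:38886690-38886939), the called gene with the largest difference outside the arrays, for Pcdh10 (chr3:45378148-45378397), the gene closest to the threshold among those not called, and for Cdh20 (chr1:104768270-104768519), the largest in the other direction. Fat1 is not shown because its RefSeq start lies 14761 bases from the GENCODE start. Capitals mark matches on either strand to the CCAAT box (CCAAT), the GC box core (GGGCGG), the core of the cAMP response element (TGACGT) and the TATA box (TATAAA).
Fat4: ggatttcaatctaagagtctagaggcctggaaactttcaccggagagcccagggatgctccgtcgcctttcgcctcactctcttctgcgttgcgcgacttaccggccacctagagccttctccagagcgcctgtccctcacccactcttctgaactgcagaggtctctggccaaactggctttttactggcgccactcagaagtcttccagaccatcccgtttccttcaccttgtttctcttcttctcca
Pcdh10: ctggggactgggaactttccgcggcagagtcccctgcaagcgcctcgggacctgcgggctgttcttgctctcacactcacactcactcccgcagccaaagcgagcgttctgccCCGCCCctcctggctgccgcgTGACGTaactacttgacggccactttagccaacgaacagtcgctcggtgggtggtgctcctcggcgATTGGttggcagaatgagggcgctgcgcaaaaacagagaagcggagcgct
Cdh20: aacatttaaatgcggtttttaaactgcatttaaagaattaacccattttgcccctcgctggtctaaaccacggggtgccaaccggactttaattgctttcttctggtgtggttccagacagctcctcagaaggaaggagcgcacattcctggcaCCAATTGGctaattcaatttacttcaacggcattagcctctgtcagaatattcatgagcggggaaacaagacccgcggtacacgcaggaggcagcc
The Fat4 window held none of the 4 motifs, the Pcdh10 window held 1 match each of the CCAAT box, the GC box core and the cAMP response element core, and that of Cdh20 held the CCAAT box on both strands as an overlapping pair. Of 32851 windows of the same length, 33.8% held the CCAAT box, 32.7% the GC box core, 6.47% the cAMP response element core and 12.4% the TATA box. The windows held 11, 22 and 10 CG dinucleotides, against a median of 6 over all windows. A match describes letters only and says nothing of a bound factor.

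Calsyntenins, which act at synapses and as cargo adaptors of kinesin, were not called. Clstn1 was at 238 to 329 RPM in cold-insensitive and 213 to 254 RPM in cold-sensitive libraries (log2 fold change −0.37 ± 0.23). Clstn3 was at 254 to 297 RPM and 296 to 390 RPM (0.26 ± 0.22). The ranges overlapped for both. DESeq2 and limma called 0 of the 3 as well, and 0 had an unadjusted p under 0.05.

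The catenins link classical cadherins to actin, and none of the 5 was called by edgeR, DESeq2 or limma, with 0 at an unadjusted p under 0.05. Ctnnb1, or β-catenin, which binds the cadherin tail and also acts in Wnt signaling, was at 287, 326 and 340 RPM in cold-insensitive and 265, 267 and 314 RPM in cold-sensitive libraries. The ranges overlapped, and the log2 fold change was −0.17 ± 0.22 (adjusted p = 0.866 by edgeR). In the annotation 14.6% of its exon length overlaps Ulk4 on the opposite strand. Ctnnd2, the neuronal δ-catenin, was at 170 to 195 RPM and 140 to 256 RPM (0.08 ± 0.26). The 3 genes named after catenins, among them the β-catenin inhibitor Ctnnbip1, had log2 fold changes between −0.06 and 0.12.

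Levels can be compared between genes only per length. Per kilobase of unshared exon, and over all 6 libraries, the highest were Ctnnb1 at 67.6 RPM, Pcdh17 at 63.5 RPM, Clstn3 at 62.3 RPM, Clstn1 at 56.2 RPM and Pcdh7 at 36.7 RPM. The median of the 56 genes that could be matched to 1 annotated gene was 6.27 RPM per kilobase, and the lowest was Cdh10 at 1.15 RPM. The called genes were of moderate level on this scale, with Pcdhgc3 at 13.9 RPM, Fat1 at 6.07 RPM and Fat4 at 4.88 RPM per kilobase. These values are averages over both types, and Pcdhgc3 stood at 23.5 RPM per kilobase in cold-insensitive and 4.36 RPM in cold-sensitive neurons.

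**Figure D4:**
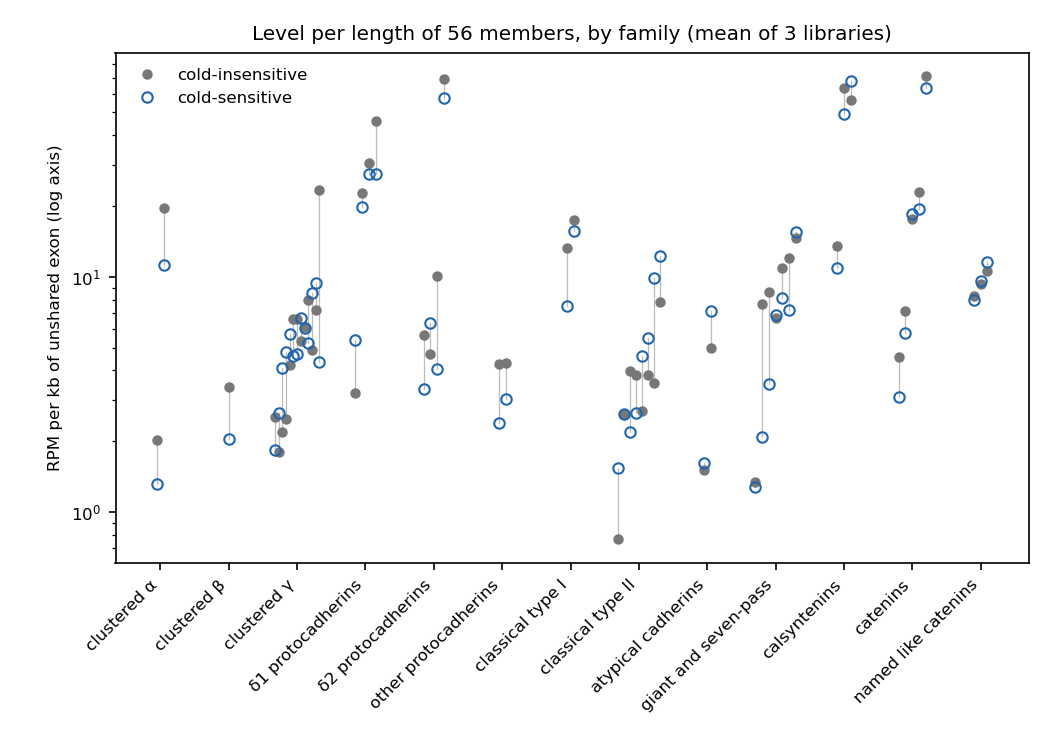
Mean RPM per kilobase of unshared exon (log axis) of 56 members by family, in cold-insensitive (filled grey) and cold-sensitive (open blue) neurons, each the mean of 3 libraries. The members span 1.15 to 67.6 RPM per kilobase over all libraries, with Ctnnb1, Pcdh17, Clstn3 and Clstn1 at the top.

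Genes that work with these adhesion proteins were not called either. This held for 13 measured genes of clustered protocadherin promoter choice and chromatin, 17 of junctions and the actin link, 9 of shedding proteases, 15 of cytoplasmic partners of protocadherins, 12 of planar cell polarity and 15 of the β-catenin pathway, where edgeR, DESeq2 and limma called 0. Their median log2 fold changes were 0.28, −0.20, 0.28, 0.04, −0.15 and −0.05. By edgeR, 0.835% of all genes were called lower and 0.334% higher. At such shares, 0 calls in lists of 9 to 17 genes is not particular to them. These lists held 2, 1, 0, 2, 0 and 3 genes at an unadjusted p under 0.05, against 5.66% of all genes lower and 5.04% higher. The genes of the lists were Stag1, Dnmt1 and Apc2, with positive values, and Nectin3, Fyn, Marcks, Axin2 and Bcl9l, with negative ones, all named after their values were seen. The cohesin subunit Stag1 had a log2 fold change of 0.63 and the maintenance DNA methyltransferase Dnmt1 one of 0.63, and Nectin3, which connects to cadherin junctions through afadin, one of −1.12. Of 12 other members of the superfamily outside the symbols used, 2 were in the table, Cdhr2 and Ret, and 0 were called. None of the desmosomal cadherins on this list was in the table.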

How the data were processed

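RNA of pooled cold-sensitive and cold-insensitive POA neurons was measured in 6 libraries, and groups and replicate numbers came from the labels. The authors used Trimmomatic 0.36 for trimming, STAR 2.5.4b for alignment to GRCm38.p6, and featureCounts (Subread 1.6.2, default parameters, hence without strand) for counting per protein-coding gene. Deposited were the authors' raw counts and their normalized signal (RPM, counts scaled to the TMM-adjusted library, per library and as a mean per type). The authors' fold change, as a ratio, and p-value columns were not used. Every gene in the table has counts above 0 and at least 1 RPM in all libraries.

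Counts of 9583 genes were fitted in R 4.3.3 with edgeR 4.0.16 (TMM, quasi-likelihood F-test, type as the only term), with a threshold of 0.05 on the Benjamini-Hochberg adjusted p over all genes. The standard error is the size of the log2 fold change divided by the square root of F. The common biological coefficient of variation was 42.2%. An exact two-sided permutation test of 3 libraries against 3 cannot go below p = 0.1. Alternatives used DESeq2 1.42.0 and limma 3.58.1 (log2 of RPM with a pseudocount of 1 or 0.5), other scalings, robust dispersion, a mean count of at least 20, the replicate number as a block, and the omission of single libraries.

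Exon overlap came from GENCODE M21, in which 56 of the 57 genes matched a single gene. The authors used M16. Pcdha11 matched 2 entries and has no length-scaled value. Upstream windows came from RefSeq. Members, lists and tests were chosen with earlier results of these data known. Members with values are those called, those at an unadjusted p under 0.05, and the 2 most abundant of each family. Others are marked as chosen after their values were seen, given as ranges or, for Cdh10, named as the lowest per kilobase. The fitting procedure was tested on simulated data. The result of 1 further list of cell type markers is not reported here.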

Additional observations from a re-analysis of the deposited data

How the results depend on the processing

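The number of members called lower, 3, became 1 to 2 over the 6 fits that left out a single library, and was 1 when cold-insensitive replicate 2 or 3 or cold-sensitive replicate 2 was omitted. It was 2 with relative log expression scaling and with limma, 4 with DESeq2, 3 with the replicate block and 2 when only members without exon overlap were counted. None was called higher under any alternative. Of the 57 members, 37 had the same sign of the log2 fold change under all 15 alternatives, and of the 20 members named by rule 17 did. The exceptions, none of them called, were Cdh2 (−0.36 to 0.043 over the fits with a library left out, 0.043 when cold-insensitive replicate 1 was omitted and 0.038 when cold-sensitive replicate 2 was), Cdh23 (−0.24 to 0.40, negative without the same libraries, at −0.24 and −0.20) and Ctnnd2 (−0.18 to 0.25, negative without cold-sensitive replicate 2). The causes were not tested. With the replicate block, the log2 fold changes of Pcdhgc3, Fat4 and Fat1 were −2.41, −1.87 and −1.21, and it changed no call of a member, while Nefl, a marker of neurons, became called. The labels do not state that libraries with the same number share sessions. By the methods, cells of both types came from each coverslip and were pooled by type within each biological replicate, which allows such sharing. Deviations of libraries with the same number correlated at only 0.0446 to 0.0586. Still, 6 of 6 libraries had their highest correlation with their own number. The main fit has no block and would ignore such a pairing. Other scalings moved the median of all genes by at most 0.03. With 3 pools a type, an adjusted p near the threshold, such as that of Fat1, depends on single libraries. Moderate differences of isoforms with few reads may have been missed, and how often this would happen was not measured.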
